A study of Mus musculus with 12 samples.

Results

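The insulin-like growth factor 1 (IGF1) family of the mouse heart was followed through 8 genes. They are the ligand *Igf1*, its receptor *Igf1r*, and the genes of the IGF binding proteins *Igfbp2*, *Igfbp3*, *Igfbp4*, *Igfbp5*, *Igfbp6* and *Igfbp7*. Every non-control probe of an expression array that carries 1 of these symbols was taken, which gave 16 probes among 56605, for 8 of 37074 gene names. In the heart muscle of 12 male C57BL6/J mice of 5 months, 0 of the 14 probes that could be tested passed a limma adjusted p of 0.05 in any comparison of diabetes or of pargyline, beside 0% to 0.126% of all tested probes. What the data hold is the level of each gene, its spread over mice, and the width of the intervals around each difference.

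The mice formed 4 groups of 3, with 1 array per mouse and no pooling. Control mice (C) received neither agent, and control mice with pargyline (C + P) received this inhibitor of monoamine oxidase at 50 mg/kg per day for 12 weeks. Diabetic mice (D) had received streptozotocin, a toxin of pancreatic beta cells, at 50 mg/kg per day on 5 days, and diabetic mice with pargyline (D + P) received both agents. The diabetes is therefore that of chemical beta cell loss, with insulin deficiency in the whole animal, and RNA came from heart tissue and not from 1 cell type. The 7 cardiomyocyte markers were well above background on all 12 arrays, with a mean log2 signal of 15.63 to 15.99. In such bulk RNA, fewer cells of a type and less RNA per cell cannot be told apart.

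IGF1 is a peptide growth factor that the liver secretes under growth hormone and that many tissues, the heart among them, also make locally. It binds the IGF1 receptor, a receptor tyrosine kinase that signals through insulin receptor substrates, phosphoinositide 3-kinase and AKT, a route to protein synthesis, glucose uptake and survival in cardiomyocytes. Binding proteins hold IGFs in blood and tissue, and can withhold them from the receptor or deliver them to it, and proteases such as pappalysin release the bound peptide.

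Several genes are read by more than 1 probe of 60 bases, and the probes of *Igf1* and *Igf1r* lie in different places, so their targets are given first. Probes are numbered within a gene from the highest mean signal to the lowest. Positions are those of the array files, in mouse build mm9, which give no exon, intron or UTR. All 7 probes below are on the + strand. For each the first 30 bases are shown, 5′ to 3′ and all in lower case, because they identify which part of the gene each value comes from.
Igf1 probe 1 at chr10:87378456-87378515: aaccattaaaaacatgccaccaagaccttc
Igf1 probe 2 at chr10:87393516-87393575: cgcaggatcctttgctgcttgagcaacctg
Igf1 probe 3 at chr10:87325382-87325441: taaaatagttgagtaaaatttgccactgat
Igf1r probe 1 at chr7:75371371-75371430: ttgtaacaatctattcacaagcctcctgta
Igf1r probe 2 at chr7:75371556-75371615: caacacttaatagcaacaggacactcgaga
Igf1r probe 3 at chr7:75332796-75332855: acatttctcatcttaaagtttgggagtaat
Igf1r probe 4 at chr7:75332515-75332574: tttctcaacaggcgaacgcaggcttagagt

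The array files list a single RefSeq mRNA for *Igf1* probe 1 and 4 others for *Igf1* probe 2, which lies 15060 bases further along the chromosome. *Igf1* probe 3 lists cDNA clones and no RefSeq mRNA. *Igf1r* probes 1 and 2 list the RefSeq mRNA of the receptor and start 185 bases apart. *Igf1r* probes 3 and 4 start 281 bases apart, list cDNA clones and no RefSeq mRNA, and start 38575 and 38856 bases before probe 1. The share of G and C in these 7 probes ran from 35% to 45%.

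Values are log2 of the scanner signal after quantile normalisation over the 12 arrays. Between 23556 and 29231 of 59305 non-control spots per array were well above background and 0 were saturated. Precision is limited by the number of arrays, 3 in a group. C and D shared a slide and a scan, and C + P and D + P shared another, so pargyline and slide cannot be told apart. On both slides row 1 held the mice without diabetes and row 2 those with it, so that diabetes and row cannot be told apart either. The arrays in column 1 of the slides (replicate 1 of C + P, of D and of D + P) had the highest median coefficients of variation between repeated spots, as the scanner software gives them for the background-subtracted signal, 22.3% to 35.3%, against 6.03% to 19.1% on the other 9. The main differences that moved when these 3 arrays were left out are given both ways.

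Of the 16 probes, 14 passed the filter, a positive and significant signal on 50% or more of the arrays in each group. *Igfbp2*, which encodes a carrier of IGFs in blood and tissue, has a single probe, and it did not pass: its signal was well above background on 0 of 12 arrays, with log2 values from 2.96 to 4.84. The second *Igfbp3* probe, which lists an Ensembl transcript, was also well above background on 0 of 12 arrays. *Igfbp2* therefore has only a bound on its level here and no comparison. The other 7 genes each had at least 1 tested probe, and 11 of the 14 were well above background on all 12 arrays.

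The ligand is given probe by probe. *Igf1* probe 1 gave 9.05, 8.93 and 9.09 in C and 9.60, 9.10 and 9.52 in D, so that the D arrays lay above all C arrays, at the closest 9.10 against 9.09. In C + P it gave 9.24, 9.06 and 8.81 and in D + P 8.98, 9.16 and 8.96, and these groups overlapped. The D group stood highest, at a mean of 9.41 ± 0.27 (SD, n = 3), against 9.02 ± 0.08 in C, 9.04 ± 0.22 in C + P and 9.04 ± 0.11 in D + P (SD, n = 3 each). The log2 difference of D against C was 0.38 (limma, SE 0.18, 95% interval -0.01 to 0.77, adjusted p = 0.462), and without the column 1 arrays it was 0.29 (adjusted p = 0.402). D + P against D was -0.37 (limma, SE 0.18, 95% interval -0.76 to 0.02, adjusted p = 0.391), a comparison across slides that shares the D arrays with the former one. The diabetes effect under pargyline less the one without was -0.39 (limma, SE 0.25, adjusted p = 0.755). These were -0.25 and -0.16 without the column 1 arrays. With array weights, which give noisier arrays less say in the fit, D against C was 0.16 (limma adjusted p = 0.409).

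*Igf1* probe 2 gave 8.26, 8.11 and 8.21 in C, 7.39, 7.97 and 8.43 in D, 7.98, 8.49 and 8.48 in C + P, and 8.02, 8.27 and 7.76 in D + P. D overlapped C, and D + P overlapped C + P. Its difference was -0.26 without pargyline (D against C, SE 0.26, limma adjusted p = 0.715) and -0.30 with it (D + P against C + P, SE 0.26, limma adjusted p = 0.814). The lowest value was that of D replicate 1, and without the column 1 arrays the differences were 0.01 and -0.47. Over all arrays *Igf1* probes 1 and 2 thus differed in sign in D against C, and without the column 1 arrays both were positive. The change averaged over both diabetes comparisons, on probe 2 minus probe 1, was -0.47, which did not pass an exact permutation test of diabetes labels within slides (400 arrangements, two-sided, p = 0.065, adjusted p = 0.26 over 4 probe pairs of *Igf1*, *Igfbp4* and *Igfbp5*, a test chosen after the data were seen). Without the column 1 arrays it was -0.44, at the smallest p that the 60 remaining arrangements can give (exact permutation p = 0.0167, adjusted p = 0.0668). Without C + P replicate 1 alone it was -0.61 and passed (exact permutation, 200 arrangements, p = 0.005, adjusted p = 0.02), the only one of the settings tried in which it did.

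*Igf1* probe 3 stood high on the 3 column 1 arrays. It read 9.69 on C + P replicate 1, 7.72 on D replicate 1 and 7.66 on D + P replicate 1, and between 5.55 and 6.77 on the other 9 arrays. These high readings cut across the groups. Its difference with diabetes was 0.75 without pargyline and -0.61 under it (SE 0.93 each, limma adjusted p = 0.778 and 0.903). On the other 9 arrays it was 0.35 and 0.10. The part of array noise in this probe was not tested.

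**Figure D1:**
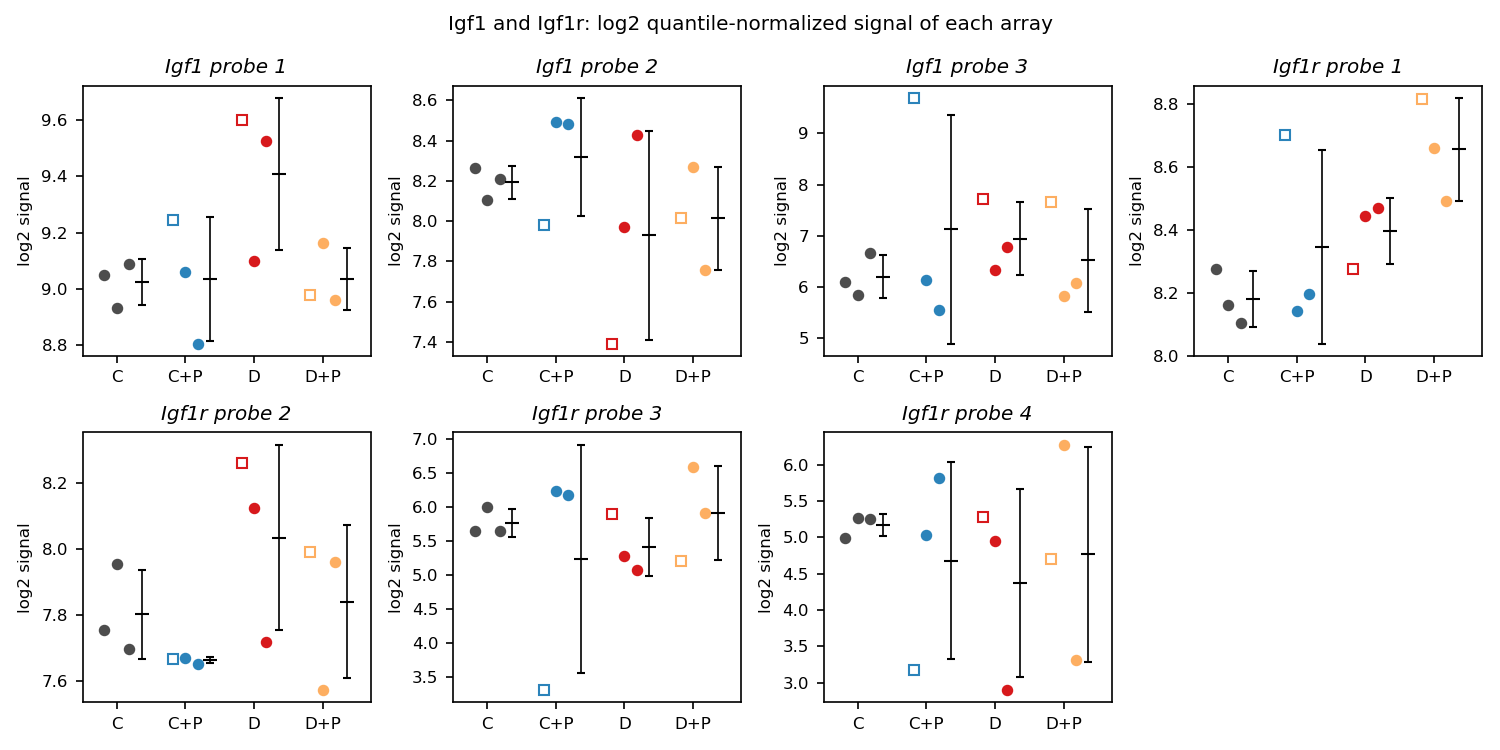
Log2 quantile-normalised signal (vertical axis, scaled per panel) of the *Igf1* and *Igf1r* probes in the 4 groups. Points are arrays, open squares mark the column 1 arrays, and black bars are the mean and SD of 3 arrays; *Igf1* probe 3 reaches 9.69 on an open square, and *Igf1r* probe 1 ranges from 8.10 to 8.82.

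For the receptor, the differences with diabetes were small and positive on both RefSeq probes, short of the threshold, and had wide intervals on both clone probes. *Igf1r* probe 1 gave 8.28, 8.16 and 8.10 in C and 8.28, 8.44 and 8.47 in D. It gave 8.70, 8.14 and 8.20 in C + P and 8.82, 8.66 and 8.49 in D + P. The group means ran from 8.18 ± 0.09 in C over 8.35 ± 0.31 in C + P and 8.40 ± 0.11 in D to 8.66 ± 0.16 in D + P (SD, n = 3 each). D and C met at 8.28, D + P overlapped C + P through C + P replicate 1, and D + P lay above D without overlap, by 0.26 (SE 0.18, limma adjusted p = 0.531), or by 0.12 without the column 1 arrays. The difference with diabetes was 0.22 without pargyline (SE 0.18, limma adjusted p = 0.652) and 0.31 under pargyline (SE 0.18, limma adjusted p = 0.727). Averaged over both it was 0.26 (limma, SE 0.12, 95% interval -0.01 to 0.54, adjusted p = 0.462). Without the column 1 arrays the average was 0.34 (limma, SE 0.09, adjusted p = 0.112). With array weights it was 0.38 and passed (limma, adjusted p = 0.025), the only setting tried in which a probe of the family was called in a diabetes comparison. With the normexp background, which models the local background in place of the scanner's subtraction, it was 0.054 (limma, adjusted p = 0.906), and D against C was 0.009.

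*Igf1r* probe 2 gave 7.75, 7.96 and 7.70 in C, 8.26, 8.13 and 7.72 in D, 7.67, 7.67 and 7.65 in C + P, and 7.99, 7.57 and 7.96 in D + P. The group means were 7.80 ± 0.14 in C, 8.04 ± 0.28 in D, 7.66 ± 0.01 in C + P and 7.84 ± 0.23 in D + P (SD, n = 3 each). The differences with diabetes were 0.23 without pargyline and 0.18 under it, each with a limma SE of 0.18 and adjusted p-values of 0.636 and 0.84. They were 0.12 and 0.11 without the column 1 arrays, and 0.045 and 0.11 with the normexp background. C + P lay below C without overlap, by -0.14 on average (SE 0.18, limma adjusted p = 1), where probe 1 differed by 0.17, or by -0.01 without the column 1 arrays. Although both probes list the same mRNA and start 185 bases apart, their values over the 12 arrays had a Pearson r of 0.02, a description over samples that share the 4 groups.

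*Igf1r* probes 3 and 4 were close to background. Signal well above background was seen for probe 3 on 8 of 12 arrays, namely 3 C, 2 C + P, 1 D and 2 D + P arrays. Probe 4 was so on 5 of 12, namely 3 C, 1 C + P, 0 D and 1 D + P arrays. Probe 3 gave 5.65, 6.01 and 5.66 in C and 5.90, 5.29 and 5.08 in D, and it gave 3.31, 6.25 and 6.18 in C + P and 5.21, 6.60 and 5.92 in D + P. Probe 4 gave 4.99, 5.27 and 5.25 in C and 5.28, 4.95 and 2.90 in D, and it gave 3.18, 5.04 and 5.82 in C + P and 4.71, 6.27 and 3.32 in D + P. On both probes the groups overlapped, and the value of C + P replicate 1 was far below the rest of its group. The D against C difference of probe 3 was -0.35 (SE 0.67, limma adjusted p = 0.868), and -0.59 without the column 1 arrays (SE 0.22, adjusted p = 0.225). Both rest on D signals of which that of replicate 2 alone was well above background. Outside column 1, with D replicate 3 set to the lowest signal well above background on its array, 5.84, the D mean is 5.56 in place of 5.19, against 5.77 in C. Probe 4 was not well above background on any D array, so that only a bound on its D level exists. The lowest signal well above background on those arrays averaged 5.39, above the C mean of 5.17, so no fold can be given. The fitted value of -0.79 (SE 0.86, limma adjusted p = 0.742), or -1.25 without the column 1 arrays, is therefore a difference between signals at background and is read as no direction. Across the 12 arrays these probes had an r of 0.69 with each other and of -0.47 and -0.36 with probe 1, and on the 9 arrays outside column 1 the same values were 0.66, -0.01 and -0.22.

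The disagreement between *Igf1r* probes was tested on the log2 difference between each dimmer probe and probe 1 on the same array. The change of that difference with diabetes, averaged over the pair of comparisons, was -0.06 for probe 2 and -0.10 for probe 3. Neither passed a two-sided exact permutation test with diabetes labels permuted within slides (400 arrangements, p = 0.715 and 0.915, both with adjusted p = 0.915 over the 3 dimmer probes). Probe 4 was run in the same way, but at background its value shows neither agreement nor disagreement. Without the column 1 arrays the changes were -0.23 for probe 2 and -0.61 for probe 3 (exact permutation adjusted p = 0.233 and 0.05). Neither passed, though the value of probe 3 lies at the threshold. Its unadjusted p is the smallest that the 60 arrangements then left can give (exact permutation p = 0.0167). The value of probe 3 rests in part on D replicate 3, where its signal was not well above background, so that its size is not read. For probe 3 the change was -0.56 without pargyline and 0.36 under it, and the second rests on C + P replicate 1, without which it was -0.79.

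**Figure D2:**
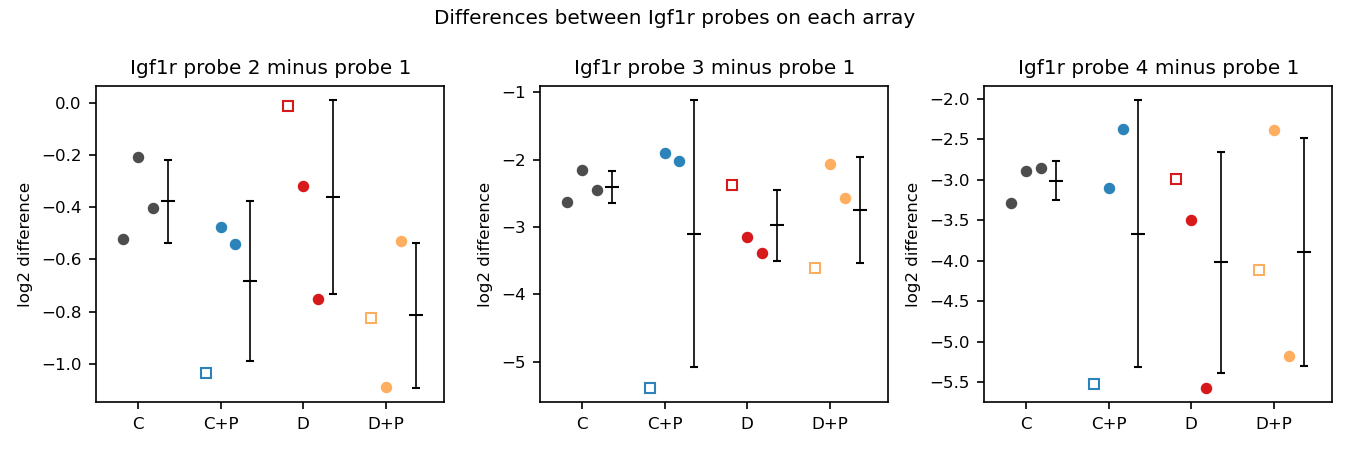
Log2 signal of *Igf1r* probes 2, 3 and 4 minus that of probe 1 on the same array (vertical axis), by group. Points are arrays, open squares mark column 1 arrays and black bars are mean and SD of 3 arrays. On C + P replicate 1 the difference of probe 3 falls to -5.39 and that of probe 4 to -5.52. The lowest difference of probe 4 is -5.57, on D replicate 3.

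Among the binding proteins, *Igfbp5* had the lowest p in the family. Its product binds IGFs with high affinity and attaches to extracellular matrix. *Igfbp5* probe 1, at chr1:72904829-72904888 on the - strand with the RefSeq mRNA of the gene, gave 10.60, 10.42 and 10.57 in C against 10.03, 10.19 and 10.35 in D. It gave 10.30, 10.17 and 10.21 in C + P and 10.23, 10.05 and 10.08 in D + P. All 9 arrays of the other groups lay below the lowest C array, so D and C + P did not overlap C, while D + P overlapped C + P. The D against C difference was -0.34 (limma, SE 0.14, 95% interval -0.65 to -0.03, adjusted p = 0.433), and without the column 1 arrays -0.26 (adjusted p = 0.294). C + P against C was -0.30 (limma, SE 0.14, 95% interval -0.61 to 0.01, adjusted p = 1), a comparison across slides that shares the C arrays. With diabetes averaged over pargyline the difference was -0.23 (limma, SE 0.10, adjusted p = 0.422). The normexp background took this average to -0.013 and D against C to -0.096 (limma adjusted p = 0.98 and 0.888).

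*Igfbp5* probe 2 starts 323 bases away and had an r of 0.70 with probe 1 over the 12 arrays. It gave 8.31, 7.94 and 7.99 in C, 6.90, 7.76 and 7.89 in D, 8.41, 7.30 and 7.45 in C + P, and 6.99, 7.45 and 7.66 in D + P. D lay below C without overlap, by -0.56 (SE 0.34, limma adjusted p = 0.546), or by -0.26 without D replicate 1 and the other column 1 arrays (adjusted p = 0.42). The averaged difference was -0.46 (SE 0.24, limma adjusted p = 0.503). The lowest values in D and in D + P were both on column 1 arrays, and without the column 1 arrays the averaged difference was -0.04 (SE 0.12, limma adjusted p = 0.873). With array weights both *Igfbp5* probes were called lower in C + P against C, by -0.33 and -0.69 (limma, adjusted p = 0.0275 and 0.0239), and in no other setting.

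*Igfbp7*, whose product binds IGFs with low affinity and is secreted by vascular cells, was the other binding protein with no overlap between D and C. It gave 13.74, 13.72 and a highest value just under 14 in C and 13.27, 13.58 and 13.25 in D. In C + P it gave 13.85, 13.78 and 13.86 and in D + P 14.20, 13.21 and 13.84, where D + P held both the highest and the lowest value of the 12. D against C was -0.45 (limma, SE 0.23, 95% interval -0.96 to 0.05, adjusted p = 0.494), and D + P against C + P was -0.08 (SE 0.23, limma adjusted p = 0.953). With array weights D against C was -0.26 (limma adjusted p = 0.308). The difference between those effects was 0.37 (SE 0.32, limma adjusted p = 0.805). Without the column 1 arrays, of which D + P replicate 1 gave the 14.20, these 3 values were -0.40, -0.29 and 0.11 (limma adjusted p = 0.355, 0.65 and 0.934).

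*Igfbp3*, the main IGF carrier of serum, differed with diabetes by -0.18 without pargyline and by -0.27 under it on its tested probe (SE 0.23 each, limma adjusted p = 0.78 and 0.812). The second value rests on D + P replicate 1: without the column 1 arrays the differences were -0.28 and 0.03 (limma adjusted p = 0.409 and 0.965). Its values ran from 9.58 to 9.98 in C, 9.36 to 9.77 in D, 9.90 to 10.14 in C + P and 9.27 to 10.15 in D + P, with overlap in both comparisons. *Igfbp6*, which prefers IGF2, ran from 10.37 to 10.68 in C, 9.76 to 10.72 in D, 10.43 to 10.90 in C + P and 10.36 to 10.75 in D + P. Its differences were -0.17 and -0.04 (SE 0.25 each, limma adjusted p = 0.821 and 0.979). Outside the column 1 arrays, of which D replicate 1 gave the 9.76, the *Igfbp6* differences were 0.12 and 0.01.

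*Igfbp4*, whose product holds IGFs away from the receptor until pappalysin cleaves it, has 2 probes. Probe 1 gave 8.21, 8.40 and 8.63 in C, 6.97, 8.20 and 8.46 in D, 7.27, 8.39 and 8.42 in C + P, and 7.85, 8.94 and 8.57 in D + P. In each of the 3 groups that hold a column 1 array, that array was the lowest. The differences with diabetes were -0.54 without pargyline and 0.43 under it (SE 0.44 each, limma adjusted p = 0.652 and 0.84), and their own difference was 0.97 (SE 0.62, limma adjusted p = 0.755). These were -0.08, 0.36 and 0.44 once the column 1 arrays were left out. Probe 2 gave 5.76 on D replicate 1 and 6.89 to 7.63 on the other 11 arrays, with a D against C difference of -0.31 (SE 0.40, limma adjusted p = 0.785), or 0.22 without the column 1 arrays.

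**Figure D3:**
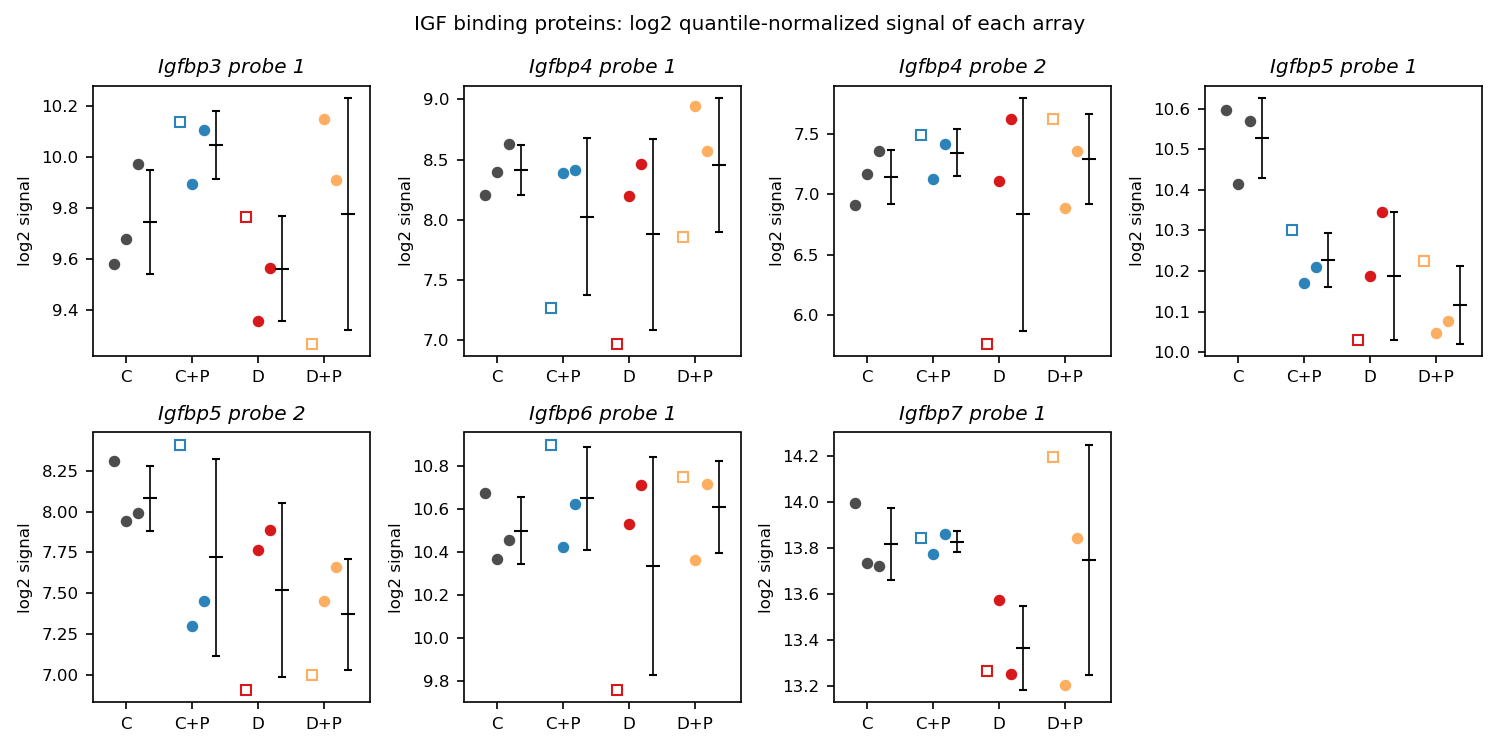
Log2 quantile-normalised signal (vertical axis, scaled per panel) of the tested probes of *Igfbp3* to *Igfbp7* by group. Points are arrays, open squares are column 1 arrays and black bars are mean and SD of 3 arrays; on *Igfbp5* probe 1 all 9 arrays of C + P, D and D + P lie below the 3 C arrays.

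Over the whole family, 0 of 14 probes were called by limma in D against C, where 0.00648% of the 30859 tested probes were called. An unadjusted p under 0.05 was reached by 1 probe, *Igfbp5* probe 1, beside 10.9% of all tested probes. Groups did not overlap on 4 probes, *Igf1* probe 1, both *Igfbp5* probes and *Igfbp7*, beside 22.4% of all probes. Leaving aside *Igf1r* probe 4, at background in D, 9 of 13 differences were negative, with a median of -0.26 log2, and 51.3% of all tested probes were lower, with a median of -0.01. On the 9 arrays outside column 1 the count was 6 of 13, with a median of 0.008, beside 47.2% and a median of 0.02 over all tested probes, so no direction of the family is read from these counts.

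Under pargyline, 0 of 14 probes were called between D + P and C + P, where 0.0454% of all probes were called. Likewise 0 reached an unadjusted p under 0.05 (7.5% of all probes) and 0 had groups without overlap (13.9% of all probes). The median without *Igf1r* probe 4 was -0.05, or 0.05 on the 9 arrays outside column 1. With diabetes averaged over pargyline, 0 of 14 were called (0.126% of all probes), and 1 had an unadjusted p under 0.05 (11.5% of all probes). Without *Igf1r* probe 4, 8 of the 13 averaged differences were negative, with a median of -0.10, beside 52.3% and a median of -0.01 over all tested probes. Outside column 1 these were 6 of 13 and 0.04, beside 50.8% and a median of -0.01 over all tested probes. The comparisons share arrays with the average, and none is independent of it.

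For pargyline, 0 of 14 probes were called in C + P against C (0.0324% of all probes), 0 had an unadjusted p under 0.05 (4.5% of all probes), and 2 had groups without overlap, *Igfbp5* probe 1 and *Igf1r* probe 2, both lower (15.5% of all probes). In D + P against D 0 were called (0% of all probes), 0 had an unadjusted p under 0.05 (13.4%), and 1, *Igf1r* probe 1, had groups without overlap (17% of all probes). For the interaction of diabetes and pargyline 0 of 14 were called (0.00648% of all probes) and 0 had an unadjusted p under 0.05 (7.07% of all probes). The family's share was at or below the background in each of these counts. The medians of the 13 probes other than *Igf1r* probe 4 were 0.01, 0.21 and 0.13 in these 3 comparisons, beside -0.01 over all tested probes in each, and -0.01, -0.16 and 0.11 on the arrays outside column 1. A p that misses the threshold leaves the intervals as the measure of what was seen. For diabetes averaged over pargyline the interval ran from -0.01 to 0.54 on *Igf1r* probe 1. The one of *Igf1r* probe 4 ran from -1.69 to 0.98, but most of its signals were at background, so that it does not measure the transcript.

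**Figure D4:**
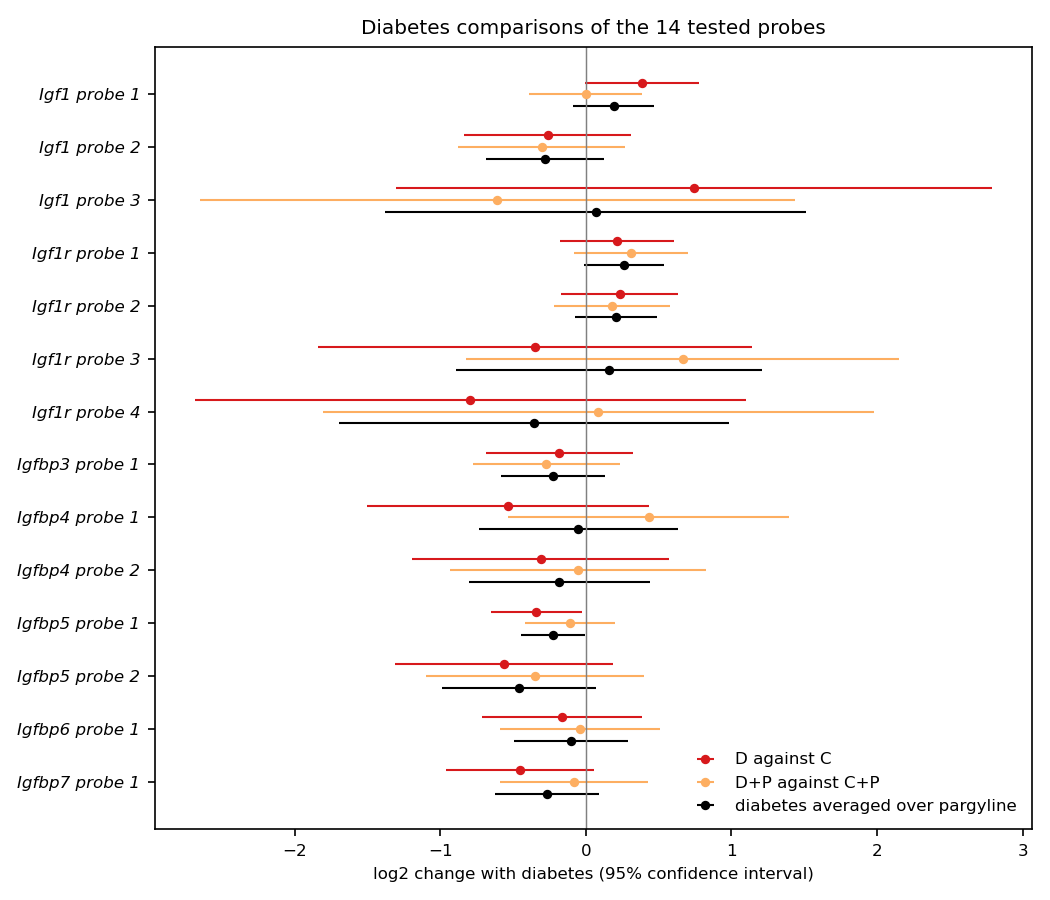
Log2 change with diabetes (horizontal axis) and its 95% interval for the 14 tested probes, without pargyline (D against C), under pargyline (D + P against C + P) and averaged over both. The interval of *Igfbp5* probe 1 in D against C runs from -0.65 to -0.03, and those of *Igf1* probe 3 and *Igf1r* probes 3 and 4 are the widest.

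The genes around the family were taken from 3 lists, with the brightest tested probe of each gene. Of their 55 genes 51 were tested and 0 passed the threshold in any of the 6 comparisons (lowest limma adjusted p = 0.138). Among other IGF ligands, receptors, binding proteins and proteases 13 of 16 genes were tested, and *Igfbp1*, *Pappa2* and *Stc1* had no tested probe. With diabetes averaged over pargyline 7 were higher and 6 lower, with a median of 0.02, and 5 of the 13 had an unadjusted p under 0.05, beside 11.5% of all tested probes. *Ccn2*, listed as *Ctgf* in the files and known as a matrix-associated growth factor of the connective tissue, gave 10.29, 10.37 and 10.32 in C and 12.77, 12.20 and 11.45 in D. In C + P it gave 11.67, 10.86 and 10.72 and in D + P 11.11, 12.03 and 11.72. D lay above C without overlap and D + P overlapped C + P, and the averaged difference was 1.18 (SE 0.26, limma adjusted p = 0.138). *Igf2*, the second IGF ligand, differed by 0.52 (SE 0.20, limma adjusted p = 0.388), and *Adamts1*, a secreted metalloprotease, differed by -0.32 (SE 0.12, limma adjusted p = 0.362). Outside column 1 these 3 values were 1.29, 0.71 and -0.34 (limma adjusted p = 0.0383, 0.116 and 0.188), so that *Ccn2* then passed. There 9 of the 13 were higher, with a median of 0.33, while 50.8% of all tested probes were lower, with a median of -0.01. Among those higher, *Igfals* and *Insrr* lay on every array below the lowest signal well above background there. No direction of the list is read from this count.

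In the growth hormone axis 9 of 9 genes were tested, with 3 higher, 6 lower, a median of -0.13 and 1 unadjusted p under 0.05, beside the same 11.5% of all tested probes. That gene was *Cish*, a feedback inhibitor of cytokine receptor signalling through STAT5, at -0.51 (SE 0.20, limma adjusted p = 0.39). Its difference was -0.05 without pargyline and -0.96 under it (limma adjusted p = 0.961 and 0.452), and outside column 1 these were 0.17 and -0.53, averaging -0.18 (limma adjusted p = 0.463). It was followed by the kinase gene *Jak2* at -0.24 and the feedback inhibitor *Socs3* at -0.28, with limma adjusted p-values of 0.642 and 0.646, which became -0.02 and -0.17 outside column 1, where the list's median was -0.02. Of 30 genes of IGF1 receptor signalling 29 were tested, with 12 higher, 17 lower, a median of -0.05 and 6 unadjusted p-values under 0.05, again beside 11.5% of all tested probes.

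*Eif4ebp1*, whose product represses cap-dependent translation until mTOR phosphorylates it, gave 12.30, 11.90 and 11.94 in C and 12.27, 12.48 and 12.23 in D. In C + P it gave 11.81, 11.80 and 11.67 and in D + P 12.27, 12.37 and 12.63. D + P lay above C + P without overlap and D overlapped C through C replicate 1, with an averaged difference of 0.47 (SE 0.12, limma adjusted p = 0.181). *Pik3r1*, the regulatory subunit of phosphoinositide 3-kinase, gave 10.43, 10.39 and 10.33 in C and 10.06, 9.86 and 9.79 in D. In C + P it gave 10.27, 10.08 and 10.51 and in D + P 9.25, 9.99 and 9.99. The diabetic arrays lay below the others on both slides, with an averaged difference of -0.51 (SE 0.15, limma adjusted p = 0.248). *Grb10*, an adaptor that restrains insulin and IGF1 receptors, differed by -0.38 (SE 0.15, limma adjusted p = 0.39).

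**Figure D5:**
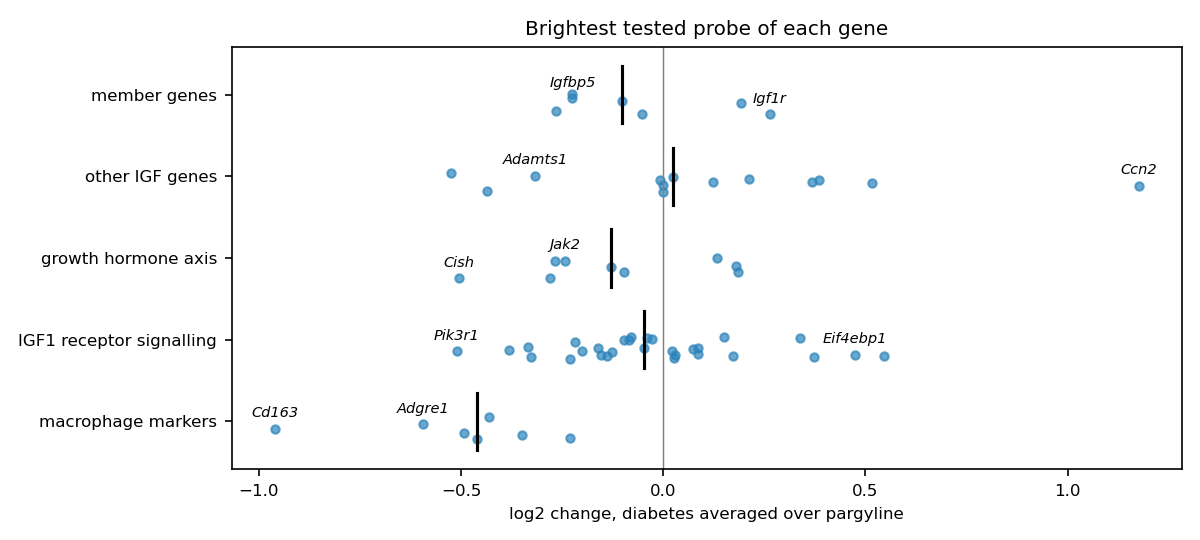
Log2 change with diabetes averaged over pargyline (horizontal axis) for the brightest tested probe of each gene, by list; vertical scatter within a list only separates the points. Each point is a gene, the black line is the median of the list, and the genes with the lowest p are named; *Ccn2* lies at 1.18 and *Cd163* at -0.96.

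Markers of the cell types that the tissue can hold were read beside these values. Of the 7 macrophage markers 0 were called by limma with diabetes averaged over pargyline. All 7 differences were negative, with a median of -0.46, and 5 of the 7 had an unadjusted p under 0.05, beside 11.5% of all tested probes. *Cd163*, a scavenger receptor of resident macrophages, differed by -0.96, *Adgre1* by -0.60 and *Cd68* by -0.49 (limma adjusted p = 0.11, 0.247 and 0.248). Outside column 1 all 7 were still negative, with a median of -0.24. Their mean log2 signal was 9.71 to 10.09 in C, 9.23 to 9.69 in D, 9.82 to 10.40 in C + P and 9.32 to 9.48 in D + P. Macrophages are a known source of IGF1, and the part of these markers in the *Igf1* and *Igfbp5* values was not tested.

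The 7 fibroblast markers had a median averaged difference of 0.03, with *Lum* at 0.42, *Pdgfra* at 0.44 and *Col1a1* at -0.23 (limma adjusted p = 0.247, 0.396 and 0.605), and a median of 0.28 outside column 1. The 7 endothelial markers had a median of 0.07, with *Emcn* at 0.26, *Tek* at 0.21 and *Pecam1* at 0.18 (limma adjusted p = 0.578, 0.594 and 0.61), and a median of -0.02 outside column 1, with *Emcn* at 0.09. The 7 mural markers had a median of -0.04, or 0.05 outside column 1. Of these, *Abcc9* was at -0.28, *Kcnj8* at 0.16 and *Myh11* at -0.16 (limma adjusted p = 0.474, 0.555 and 0.826). The average of *Myh11* joins -0.83 without pargyline and 0.52 under it (limma adjusted p = 0.419 and 0.755). The 7 cardiomyocyte markers had a median of 0.03, with *Ryr2* at -0.99, *Tnnt2* at -0.31 and *Myh6* at 0.17 (limma adjusted p = 0.133, 0.624 and 0.642). On the arrays outside column 1 these 3 were at -0.66, 0.03 and 0.12.

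For markers of blood and of neighbouring tissues 0 were called by limma. The 5 red cell markers had a median of 0.01, with *Hbb-b2* at -0.34, *Alas2* at -0.23 and *Hbb-b1* at 0.18 (limma adjusted p = 0.613, 0.708 and 0.738). On the arrays outside column 1 these 3 were at 0.01, 0.05 and 0.38, and all 5 were positive. Among the lymphocyte markers *Ms4a1* was at 0.76, *Cd3e* at 0.08 and *Cd3d* at -0.08 (limma adjusted p = 0.4, 0.882 and 0.915). Of the 4 tested lymphocyte markers only 1 was well above background on all arrays. *Ms4a1* read 3.87 to 5.97, on most arrays below the lowest signal well above background there. Each of the epicardial, atrial and adipocyte lists had 2 of 4 genes tested. They were *Msln* at 0.87 and *Wt1* at 0.11, *Myl4* at -0.31 and *Myl7* at -0.05, and *Lep* at 0.20 and *Plin1* at -0.10 (limma adjusted p from 0.411 for *Msln* to 0.961 for *Myl7*). The average of *Myl7* joins opposite differences, 0.94 without pargyline and -1.04 under it (limma adjusted p = 0.45 and 0.621), with an interaction of -1.98 (limma adjusted p = 0.608), on a probe well above background on 4 of 12 arrays. *Plin1* gave 0.53 and -0.72 (limma adjusted p = 0.645 and 0.737). Its signal, 2.92 to 4.96, lay on every array below the lowest signal well above background there. These are differences between signals at background and are read as no direction. Outside column 1 *Msln* was at 1.20 (limma adjusted p = 0.116), *Cd3d* at 0.23, *Plin1* at 0.28 and *Lep* at 0.34.

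The members did not share 1 pattern over the arrays. Between the brightest probes of the 7 genes the Pearson r over 12 arrays ran from -0.71 for *Igf1* and *Igfbp7* to 0.57 for *Igfbp6* and *Igfbp7*, and *Igf1* and *Igf1r* had an r of 0.14. These values describe arrays that share the groups, slides and noise. Among 14686 other named genes, those most like *Igf1* probe 1 were *Caskin1* (r = 0.94), *Olfr430* (r = 0.93) and *Fscn3* (r = 0.93). For *Igf1r* probe 1 they were *Xbp1* (r = 0.91), *Faap20* (r = 0.90) and *Pdlim2* (r = 0.88). For *Igfbp4* probe 1 they were *Lmf2* (r = 0.97), *Cadm1* (r = 0.95) and *Fam171a1* (r = 0.94 over the same 12 arrays). For *Igfbp5* probe 1 they were *Retnla* (r = 0.89), *Rab3a* (r = 0.88) and *Gm35107* (r = 0.87).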

How the data were processed

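Messenger RNA of 12 hearts was profiled on single-channel Agilent arrays. Per the file headers, the deposited scanner intensity came from Feature Extraction 12.0.0.7, background-subtracted and on a linear scale, whereas the methods of the study name another version. The deposited table of the whole series holds intensity quantile normalised by the authors and was an alternative. The scanner intensity was log2 transformed and quantile normalised. Control spots were left out, spots flagged as outliers were set to missing, and probes with a positive and significant signal on 50% or more of each group's arrays were tested (30859 of 56605). Positive and well-above-background calls are the 0 or 1 scores that the authors deposited with each spot. Groups came from the labels. limma 3.58.1 in R 4.3.3 fitted 1 mean per group over all 12 arrays, with 8 residual degrees of freedom and two-sided Benjamini-Hochberg adjusted p-values over all tested probes, at a threshold of 0.05. data.table (version 1.17.8) handled the tables, and Python 3.11.15 with pandas 2.3.3, numpy 2.4.6 and matplotlib 3.10.9 drew the figures. The fit was checked on simulated data. Accessions of 20770 tested probes matched RefSeq (GRCm38.p6, names only), and for 963 the name differed from the file. All member probes are described. From each other list, genes past the threshold are named, or otherwise the 3 with the smallest unadjusted p in diabetes averaged over pargyline, and the 3 genes with the highest r are named for *Igf1*, *Igf1r* and each member with the smallest p in a comparison. One gene that met this rule is not reported here. Members and lists were chosen with earlier results of these data known.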

Additional observations from a re-analysis of the deposited data

How the results depend on the processing

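The count of family probes called was 0 in each of the 6 comparisons and stayed at 0 under every alternative run except array weights, which called 1 probe (*Igf1r* probe 1) with diabetes averaged over pargyline and 2 (both *Igfbp5* probes) in C + P against C. The cause was not tested. Leaving out each array in turn gave 0 to 0 in all 6. The change of the *Igf1r* probe difference ran from -0.14 to 0.04 for probe 2, -0.68 to 0.20 for probe 3 and -1.08 to -0.23 for probe 4, a value at background, when each array was left out, so the values of probes 2 and 3 could change sign. It was 0.024 for probe 2 with the normexp background. Without the 3 arrays of slide column 1, a setting chosen after the data were seen, D against C changed sign to 0.008 for *Igf1* probe 2, 0.22 for *Igfbp4* probe 2 and 0.12 for *Igfbp6*. The averaged diabetes change then became -0.27 for *Igf1r* probe 3, 0.14 for *Igfbp4* probe 1, 0.038 for *Igfbp4* probe 2 and 0.069 for *Igfbp6*. With array weights the *Igfbp6* differences were 0.057 in D against C and 0.069 averaged, and the averaged change was -0.27 for *Igf1r* probe 3 and 0.004 for *Igfbp4* probe 1. The averaged change was -0.042 for *Igf1* probe 3 and -0.019 for *Igf1r* probe 3 with the normexp background, and -0.33 for *Igf1r* probe 3 and 0.003 for *Igf1r* probe 4 with values that were not positive and significant set to missing.

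Left out one at a time, the arrays moved D against C from -0.51 to 0.008 for *Igf1* probe 2, -0.71 to 0.22 for *Igfbp4* probe 2 and -0.36 to 0.12 for *Igfbp6*, each positive only without D replicate 1. The averaged change ran from -0.33 to 0.71 for *Igf1* probe 3, -0.33 to 0.41 for *Igf1r* probe 3, -0.73 to 0.016 for *Igf1r* probe 4, -0.24 to 0.18 for *Igfbp4* probe 1, -0.38 to 0.086 for *Igfbp4* probe 2 and -0.20 to 0.042 for *Igfbp6*. The signs of *Igf1* probe 1, *Igf1r* probes 1 and 2, both *Igfbp5* probes, *Igfbp3* and *Igfbp7* were kept in both comparisons under all alternatives run.

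Over all tested probes, calls are given in this order: diabetes without pargyline, diabetes under pargyline, averaged diabetes, pargyline in controls, pargyline in diabetic mice, and the interaction. They numbered 2, 14, 39, 10, 0 and 2. Array weights gave 2792, 375, 2142, 2262, 17 and 58. A pairing of arrays by replicate number was not apparent. Deviations of same-numbered arrays correlated at -0.20 to 0.20, and 5 of 12 arrays lay nearest to one of their own number. With 3 arrays per group this cannot exclude a pairing. With the replicate block the calls were 0, 8, 4, 6, 0 and 0, and family probes called were 0 throughout. Without the column 1 arrays they were 0, 28, 119, 5, 0 and 0. No filter on dim probes gave 3, 24, 19, 7, 12 and 5, the stricter filter 3, 7, 69, 10, 3 and 4, missing values 3, 16, 50, 12, 6 and 4, and normexp 3, 18, 46, 11, 2 and 4. One slide alone gave 0 for diabetes without pargyline and 2 under it. Equal-variance t-tests gave 0 in the 4 pairwise comparisons, with Bonferroni or Benjamini-Hochberg adjustment. The study also used t-tests, but with an adjusted Bonferroni correction and failing values set to missing, a procedure that was not repeated here. Leaving out single arrays gave 0 to 5, 5 to 35, 3 to 123, 4 to 12, 0 to 0 and 0 to 2. A random block by slide could not be estimated, because slide is a sum of the groups. A fixed slide block, added after the data were seen, gave 28 averaged calls.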

Other observations

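Beside the genes named by rule, *Irs2*, the insulin receptor substrate that couples the insulin and IGF1 receptors to phosphoinositide 3-kinase, was chosen after its values were seen. It gave 8.86, 9.24 and 9.19 in C against 10.38, 10.06 and 9.50 in D, 10.05, 10.06 and 10.17 in C + P, and between 9.82 and 10.06 in D + P. All 9 arrays of the other groups lay above the 3 C arrays. D against C was 0.88 (SE 0.22, limma adjusted p = 0.273) and C + P against C was 1.00 (SE 0.22, limma adjusted p = 0.438), a comparison that shares the C arrays and lies across slides. The interaction was -1.02 (SE 0.30, limma adjusted p = 0.62), and none of the 3 passed the threshold. Without the column 1 arrays, of which D replicate 1 gave the 10.38, these 3 values were 0.68, 1.02 and -0.86 (limma adjusted p = 0.161, 0.385 and 0.478).

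Also chosen after their values were seen were *Insr*, the insulin receptor, and *Grb14*, an adaptor that inhibits it. *Insr* gave 7.26, 7.81 and 7.76 in C and 8.38, 8.02 and 7.87 in D, without overlap, with a difference of 0.48 (SE 0.22, limma adjusted p = 0.459), or 0.33 without the column 1 arrays. *Grb14* gave 12.74, 12.75 and 12.76 in C and 11.95, 12.54 and 12.39 in D, without overlap, with a difference of -0.46 (SE 0.19, limma adjusted p = 0.435), or -0.28 without the column 1 arrays, of which D replicate 1 gave the 11.95 (limma adjusted p = 0.331). Non-overlap of D and C was seen on 22.4% of all tested probes.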
